A study of Homo sapiens with 27 samples.

Results

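BNIP3, BNIP3L (also called NIX) and FUNDC1 are receptors for mitophagy, the removal of mitochondria by autophagy, and their transcripts were followed through hypoxia and mTOR inhibition in neuroblastoma cells. The 3 genes, of 12664 tested, were taken because they are the receptors of the outer mitochondrial membrane best known for their part in hypoxia. Every probe that the annotation names for them was used. That annotation names only probes of the authors' value table, so any other probe of these genes could not be found. RNA had been extracted from SK-N-BE(2)c, an established MYCN-amplified human neuroblastoma line, and hybridised to 27 Illumina bead arrays. PP242 blocks the kinase mTOR in both of its complexes, and DMSO is its solvent. The groups were PP242 for 24, 48 and 72 h (n = 4 each), DMSO for 24 h (n = 3) and for 48 and 72 h (n = 4 each), all of them in hypoxia, and a 0 h control (n = 4). The labels used here give neither the oxygen level nor the PP242 dose. They name neither DMSO nor hypoxia for the control, so hypoxia, DMSO and time in culture cannot be told apart in a comparison with it. All arrays come from 1 line, and nothing says that replicates were separate cultures, so p-values measure a spread that may be technical.

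BNIP3 and BNIP3L are BH3-type proteins of the outer mitochondrial membrane that hold an LC3-interacting region, through which they tie a mitochondrion to the ATG8 proteins of a growing autophagosome. Their genes are known targets of the hypoxia-inducible factors (HIF), and BNIP3L is needed to clear mitochondria from maturing red blood cells. FUNDC1 is known to be switched by phosphorylation: SRC and casein kinase 2 hold it back, and the phosphatase PGAM5 releases it in hypoxia. Arrays measure transcripts and say nothing of protein, phosphorylation or mitophagy itself.

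The promoters are shown because a HIF response element has ACGTG or GCGTG as its core, so BNIP3 and FUNDC1 can be set beside their response in hypoxia; the BNIP3L promoter was not used here. RefSeq (GRCh38.p14) gives both on the minus strand, from 250 bases before to 50 bases after the start of the gene, and they are written 5′ to 3′. BNIP3 lies at chr10:131981874-131982173 and FUNDC1 at chrX:44542810-44543109. Capitals mark ACGTG or GCGTG on either strand, where CACGC is GCGTG read from the other strand.
BNIP3: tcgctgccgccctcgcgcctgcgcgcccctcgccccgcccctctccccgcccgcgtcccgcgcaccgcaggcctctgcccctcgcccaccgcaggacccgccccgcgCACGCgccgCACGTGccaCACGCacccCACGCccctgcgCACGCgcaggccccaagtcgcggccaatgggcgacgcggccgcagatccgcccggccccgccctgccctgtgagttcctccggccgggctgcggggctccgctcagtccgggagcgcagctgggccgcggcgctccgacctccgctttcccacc
FUNDC1: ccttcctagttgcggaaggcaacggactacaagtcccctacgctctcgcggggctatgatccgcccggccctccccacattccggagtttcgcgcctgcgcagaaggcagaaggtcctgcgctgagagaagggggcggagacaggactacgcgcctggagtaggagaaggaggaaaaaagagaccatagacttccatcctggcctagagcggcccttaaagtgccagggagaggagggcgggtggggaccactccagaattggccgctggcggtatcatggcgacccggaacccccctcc
The BNIP3 window held GCGTG 4 times, beginning 143, 125, 116 and 104 bases before the start, and 1 CACGTG at 134 bases, which counts as 2 overlapping matches of ACGTG, 1 on each strand. The FUNDC1 window held none of these 3 motifs. Neither window held GTAAACA, the core of the FOXO forkhead site, on either strand. Of 35116 promoters of the same length, 21.4% held ACGTG, 36.5% GCGTG, 7.26% CACGTG and 3.42% GTAAACA. The BNIP3 window was 80.7% G and C and the FUNDC1 window 63.0%, with a median of 58.7% over all promoters. In the 22 tested genes of a list of other HIF targets, 20 had a promoter entry, and 12 of these held ACGTG, 12 GCGTG and 5 CACGTG. A match is a string of letters and does not show binding.

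All 4 probes annotated to the members were above background on all 27 arrays. BNIP3 (ILMN_1724658) had deposited intensities of 1183 to 9905, and FUNDC1 (ILMN_1728540) of 218 to 679. BNIP3L had 2 probes, a stronger one (ILMN_1718961, 161 to 1053) that stands for the gene in all tests and a weaker one (ILMN_2045419, 137 to 488). The RefSeq gene table lists 46 BNIP3 pseudogenes, 33 of them on chromosome 19, and whether the BNIP3 probe also binds their transcripts was not tested. Values below are normalized log2 intensities, in the order of the replicate numbers, and differences are in log2 units. A probe's level is comparable between arrays and not with that of another probe.

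Deposited array medians lay between 98 and 113, and 20729 to 22843 of 48107 probes per array exceeded background. All 9 measured neuroblastoma markers of 11 listed, among them MYCN, PHOX2A and TH, were above background on all arrays. Of 15 markers of other cell types, 7 entered the test; the T cell marker CD3D and the endothelial markers VWF and CDH5 exceeded background on 0 arrays, PECAM1 on 1 and the leukocyte marker PTPRC on 2, while CD14 and ACTA2 did so on 27. Array values also moved with the replicate number: 4566 genes differed between arrays numbered 4 and 1 in a model with the group, 2101 between 3 and 1, and 94 between 2 and 1. No DMSO 24 h array numbered 4 was analysed here.

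**Figure D1:**
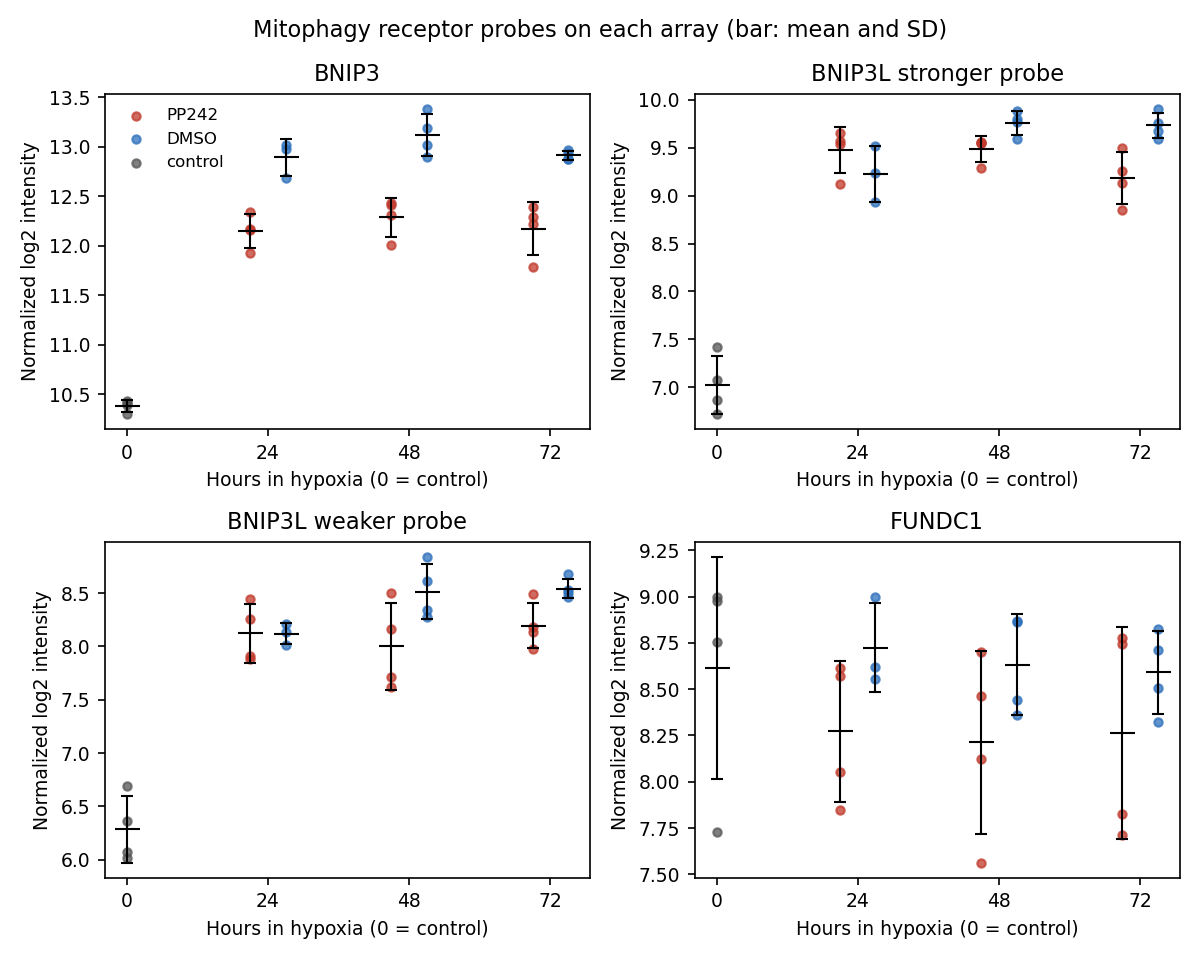
Normalized log2 intensity (y axis) of the 4 member probes on each of the 27 arrays, by group and time (x axis). Points are arrays, and bars are group means with 1 SD to each side. BNIP3 and both BNIP3L probes lie above the 0 h control on every hypoxic array, the PP242 points of BNIP3 lie below the DMSO points at each time, and FUNDC1 spreads widely within its groups.

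BNIP3 and BNIP3L rose in hypoxia with DMSO at every time, and FUNDC1 did not pass the test. BNIP3 was 5.69-fold above the 0 h control at 24 h, 6.66-fold at 48 h and 5.77-fold at 72 h. BNIP3L rose by 2.21, 2.74 and 2.71 log2 units on its stronger probe. The size of that rise depended on the processing. It was 1.74, 2.23 and 2.20 with no background correction, and 1.73, 2.23 and 2.22 in the authors' value table. FUNDC1 differed by 0.11, 0.02 and -0.02. With the replicate number as a block, the 24 h values were 2.44 for BNIP3, 2.14 for BNIP3L and -0.04 for FUNDC1. Of all 12664 genes, 1.01% changed at 24 h, 13.8% at 48 h and 24.5% at 72 h. In RNA of whole cultures, fewer cells of a kind and less RNA per cell cannot be told apart.

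BNIP3 read 12.68, 13.02 and 12.98 with DMSO at 24 h, 13.38, 13.19, 13.01 and 12.90 at 48 h, and 12.87, 12.88, 12.93 and 12.97 at 72 h. The 0 h control read 10.43, 10.41, 10.40 and 10.30. Each of these DMSO arrays stood more than 2 log2 units above the highest control array, and the groups did not overlap. The fitted differences were 2.51 ± 0.15 at 24 h (SE, adjusted p = 1.96e-12), 2.74 ± 0.13 at 48 h (adjusted p = 1.62e-14) and 2.53 at 72 h (adjusted p = 6.98e-14). Ranked by size from the highest rise, BNIP3 was number 11 of all genes at 24 h, 25 at 48 h and 34 at 72 h.

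The stronger BNIP3L probe read 9.24, 8.93 and 9.52 with DMSO at 24 h, 9.80, 9.77, 9.89 and 9.59 at 48 h, and 9.68, 9.91, 9.76 and 9.59 at 72 h. The control arrays read 6.87, 7.42, 7.08 and 6.72, below all of them. Adjusted p-values were 6.33e-10, 5.85e-13 and 4.65e-13. The weaker probe, tested with all 31318 kept probes, rose by 1.84, 2.23 and 2.26, and the probes correlated with r = 0.901 over the 27 arrays, which share groups and processing.

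FUNDC1 read 8.56, 9.0 and 8.62 with DMSO at 24 h, 8.87, 8.86, 8.36 and 8.44 at 48 h, and 8.83, 8.71, 8.32 and 8.50 at 72 h. The control read 8.97, 9.0, 8.75 and 7.73. The lowest control array lay below every DMSO array. The other 3 control arrays lay among the DMSO arrays at 24 h. At 48 and 72 h the control arrays numbered 1 and 2 lay above every DMSO array, and number 3 lay among them. The groups overlapped at each time (adjusted p = 0.893, 0.979 and 0.972). Arrays numbered 4 lay below those numbered 1 for FUNDC1 over all groups (-0.76, adjusted p = 2.06e-05) and those numbered 3 lay lower as well (-0.45, adjusted p = 0.00869). For BNIP3 the number 4 arrays differed by -0.24 (adjusted p = 0.0345), and for BNIP3L by -0.26 (adjusted p = 0.0597). The cause of these shifts was not tested.

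BNIP3 fell under PP242 at each time, and BNIP3L passed the test at 72 h. BNIP3 was 1.67-fold lower with PP242 than with DMSO at 24 h, 1.78-fold lower at 48 h and 1.67-fold lower at 72 h. BNIP3L differed by 0.25, -0.27 and -0.55, of which the last passed the test. FUNDC1 differed by -0.45, -0.42 and -0.33, none of which passed. Of all genes, 21.6% changed at 24 h, 10.2% at 48 h and 8.88% at 72 h.

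BNIP3 read 12.17, 12.15, 12.34 and 11.93 with PP242 at 24 h, 12.31, 12.43, 12.41 and 12.005 at 48 h, and 12.39, 12.29, 12.22 and 11.79 at 72 h. Each of these arrays lay below every DMSO array of its time, whose values are given above, and the array numbered 4 was the lowest at each time. The differences were -0.74 at 24 h (95% interval -1.04 to -0.44, adjusted p = 0.000404), -0.83 at 48 h (adjusted p = 0.000112) and -0.74 at 72 h (adjusted p = 0.000399). The fall kept its call under each alternative run and without any single array.

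The stronger BNIP3L probe read 9.58, 9.66, 9.54 and 9.13 with PP242 at 24 h, within and above the DMSO range (95% interval of the difference -0.10 to 0.60, adjusted p = 0.348); with 1 median per array the difference was -0.07. At 48 h it read 9.55, 9.56, 9.29 and 9.55, all below the DMSO arrays of that time, and the difference missed the threshold (adjusted p = 0.317). At 72 h it read 9.50, 9.25, 9.14 and 8.85, again below every DMSO array, and the fall passed (adjusted p = 0.0248). That call is fragile: the weaker probe differed by -0.35 at 72 h (adjusted p = 0.393), and the adjusted p was 0.0842 with each array scaled to 1 median, 0.0886 without DMSO replicate 2, 0.0578 without DMSO replicate 3, 0.0597 without PP242 replicate 3 and 0.116 without PP242 replicate 4. The weaker probe differed by 0.0042 at 24 h (adjusted p = 0.993) and -0.51 at 48 h (adjusted p = 0.108).

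FUNDC1 read 8.57, 8.61, 8.05 and 7.85 with PP242 at 24 h, 8.70, 8.46, 8.12 and 7.56 at 48 h, and 8.74, 8.77, 7.82 and 7.71 at 72 h. Arrays 3 and 4 were the low ones at each time, and the groups overlapped with DMSO (adjusted p = 0.32, 0.398 and 0.571). Within arrays of the same number, FUNDC1 was lower with PP242 in 2 of 3 pairs at 24 h, 4 of 4 at 48 h (from -0.88 to -0.17) and 3 of 4 at 72 h, and with the number as a block the adjusted p was 0.21, 0.0575 and 0.161. FUNDC1 passed in none of the 18 comparisons fitted.

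**Figure D2:**
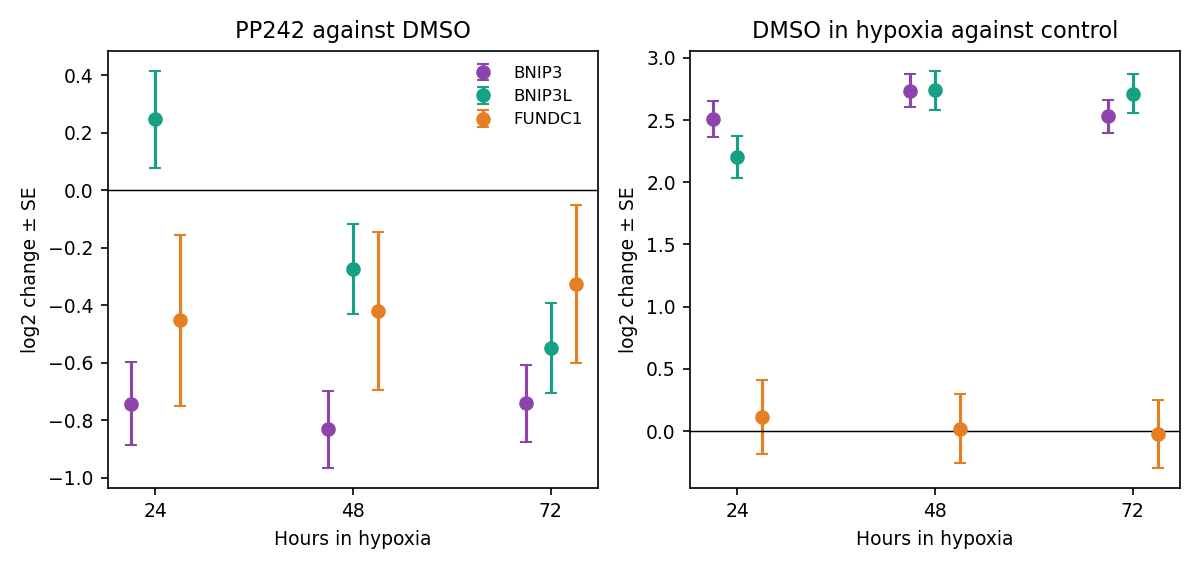
Fitted log2 change (y axis) of BNIP3, BNIP3L and FUNDC1 with 1 SE to each side, for PP242 against DMSO and for DMSO against the 0 h control at 24, 48 and 72 h (x axis). BNIP3 lies between -0.83 and -0.74 under PP242 and between 2.51 and 2.74 in hypoxia, and the FUNDC1 bars take in 0 in the hypoxia comparisons.

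With PP242 present, BNIP3 and BNIP3L still stood above the 0 h control. BNIP3 was 3.40-, 3.74- and 3.46-fold above it at 24, 48 and 72 h, and BNIP3L was higher by 2.45, 2.47 and 2.16 log2 units, which put it at rank 7, 12 and 16 among the rises of all genes. In these comparisons 24.4%, 19.4% and 16.5% of all genes changed. They share the control arrays with the DMSO comparisons. With no background correction BNIP3L was higher by 1.97, 1.98 and 1.71.

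BNIP3 and FUNDC1 passed in no comparison between times in hypoxia. For BNIP3L, the DMSO arrays at 48 and 72 h lay above those at 24 h on both probes. The weaker probe differed from 24 h by 0.40 at 48 h (adjusted p = 0.42) and 0.42 at 72 h (adjusted p = 0.209). On the stronger probe the calls depended on the processing. BNIP3L with DMSO was higher at 72 h than at 24 h by 0.51 (adjusted p = 0.0395), a call lost with 1 median per array (0.22, adjusted p = 0.586) and without any one of DMSO 24 h replicates 1 and 2 (0.51 and 0.36) or DMSO 72 h replicates 1, 2 and 3 (0.52, 0.45 and 0.50). At 48 h against 24 h it differed by 0.53 (adjusted p = 0.0751), which passed with the replicate number as a block (0.60, adjusted p = 0.00859) and without DMSO 24 h replicate 3 (0.68, adjusted p = 0.0447). Of all genes, 4.05% changed with DMSO at 48 h against 24 h, 2.27% at 72 h against 48 h and 16.6% at 72 h against 24 h. With PP242 the shares were 1.11%, 0.0079% and 5.9%, and no member was among them.

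The PP242 effect itself was compared between times. For BNIP3 it did not differ beyond error. For BNIP3L it was lower at 72 h than at 24 h (-0.80, adjusted p = 0.0178), while 48 h against 24 h gave -0.52 (adjusted p = 0.229) and 72 h against 48 h gave -0.28 (adjusted p = 0.787). Without DMSO 24 h replicate 2 the first of these was -0.65 (adjusted p = 0.086), with 1 median per array -0.55 (adjusted p = 0.287), and on the weaker probe -0.35 (adjusted p = 0.551). Among all genes the effect differed for 5.05% at 48 h against 24 h, 0.6% at 72 h against 48 h and 15.2% at 72 h against 24 h.

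By group mean, BNIP3 was highest with DMSO at 48 h (13.12 ± 0.21, SD), then DMSO at 72 h, DMSO at 24 h, PP242 at 48 h, PP242 at 72 h, PP242 at 24 h and the control (10.38 ± 0.06). Neighbours in that order differed beyond error between DMSO at 24 h and PP242 at 48 h (0.60, adjusted p = 0.00489) and between PP242 at 24 h and the control (1.77, adjusted p = 4.73e-10), and not elsewhere. BNIP3L ran from DMSO at 48 h (9.76 ± 0.13) through DMSO at 72 h, PP242 at 48 h, PP242 at 24 h, DMSO at 24 h and PP242 at 72 h to the control (7.02 ± 0.30), with a called step at the end alone (2.16, adjusted p = 1.46e-10). No neighbouring groups of FUNDC1 differed beyond error, its means running from 8.72 to 8.21. These contrasts between neighbours were added after the group means had been seen.

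The members were also set against each other within each array, where a difference of 2 probes has no meaning as a level but its change between groups shows unequal change. BNIP3 minus BNIP3L was lower with PP242 than with DMSO at 24 h (-0.99), with arrays at 2.50 to 2.80 under PP242 and 3.44 to 4.09 under DMSO. At 48 h the difference was -0.56, with PP242 arrays at 2.45 to 3.12 and DMSO arrays at 3.12 to 3.58, which did not overlap by a margin smaller than the rounding. At 72 h it was -0.19, with ranges that overlapped. Two-sided exact permutation tests gave p = 0.0571, 0.0286 and 0.0857, where 0.0571 and 0.0286 are the smallest that 3 against 4 and 4 against 4 arrays allow. After adjustment over the 18 such tests, none was under 0.05 and the lowest was 0.103. At 24 h this was fixed in advance, because no p there can be under 0.0571. At 48 and 72 h a pass needed most of the 18 tests to reach their smallest p. The adjusted values thus cannot show that the change was equal. With the weaker BNIP3L probe the differences were -0.75, without overlap, and -0.32 and -0.39, with overlap.

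**Figure D3:**
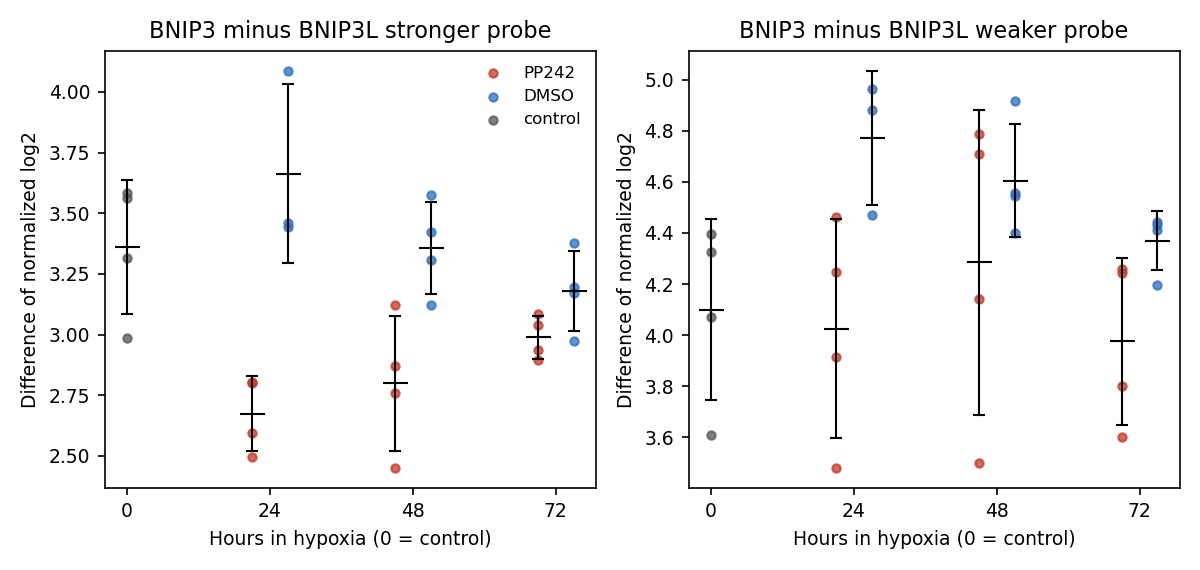
BNIP3 minus BNIP3L within each array (y axis, log2 units), by group and time (x axis), for the stronger BNIP3L probe (left) and the weaker one (right). Points are arrays and bars are group means with 1 SD to each side; with the stronger probe the PP242 points lie below the DMSO points at 24 and 48 h and overlap at 72 h, and with the weaker probe they lie below at 24 h and overlap at 48 and 72 h.

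In hypoxia, BNIP3 minus BNIP3L changed by 0.30, -0.0044 and -0.18 against the control at 24, 48 and 72 h, with overlap at each time. BNIP3 rose more than FUNDC1 by 2.40, 2.72 and 2.55, and BNIP3L more than FUNDC1 by 2.09, 2.72 and 2.73, in each case without overlap between the DMSO and control arrays. In the 3 other settings the BNIP3 minus BNIP3L difference at 24 and 48 h no longer overlapped with the control. It changed by 0.67 and 0.50 with the weaker probe and 0.70 and 0.44 without background correction. In the authors' value table it changed by 0.62 and 0.43. At 72 h the ranges overlapped in each setting. BNIP3 and BNIP3L correlated with r = 0.917 over the 27 arrays, BNIP3 and FUNDC1 with 0.135 and BNIP3L and FUNDC1 with -0.018. These arrays share the 7 groups, so the coefficients describe the groups as much as the arrays.

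A list of 25 other HIF target genes, 22 of them tested, gave a scale for these changes. With DMSO, 21, 21 and 20 of 22 rose at 24, 48 and 72 h and 0 fell, with median changes of 1.87, 2.79 and 2.63 against a median of all genes between -0.016 and -0.0098. Of all genes, 0.829%, 6.71% and 11.2% rose. With PP242, 13, 17 and 17 of 22 were lower than with DMSO and 0 higher, with medians of -0.68, -1.38 and -1.09. The shares of all genes that were lower with PP242 were 11.3%, 5.76% and 5.46%. BNIP3 fell by less than 10, 15 and 15 of the 22 at 24, 48 and 72 h, and BNIP3L stood above 21, 22 and 19 of them. This place of BNIP3L is that of its stronger probe. At 48 h its margin was narrow, at -0.27 against -0.28 for the highest list gene. The weaker probe, at -0.51, lay below the list gene ANKRD37 (-0.41) at that time.

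**Figure D4:**
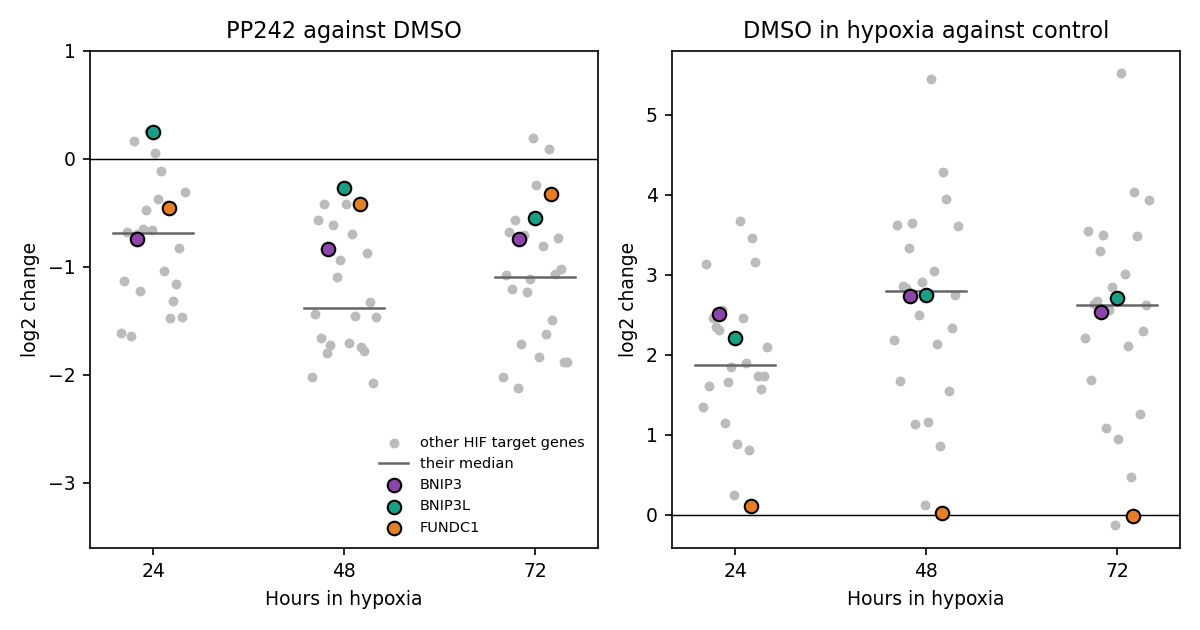
Log2 change (y axis) of the 22 tested HIF target genes as grey points, with BNIP3, BNIP3L and FUNDC1 marked, for PP242 against DMSO and DMSO against the 0 h control at each time (x axis). The list medians are 1.87, 2.79 and 2.63 in hypoxia and -0.68, -1.38 and -1.09 under PP242. BNIP3L, shown by its stronger probe, lies narrowly above all 22 list genes under PP242 at 48 h (-0.27 against -0.28 for the highest).

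Single HIF targets spread around the members. NDRG1, a stress-response gene, rose by 3.67, 5.44 and 5.52 in hypoxia and was lower under PP242 at 48 h (-1.70) and 72 h (-1.83). VEGFA, the angiogenic growth factor, rose by 2.09, 3.61 and 3.93 and differed under PP242 by -0.31 at 24 h (adjusted p = 0.386), -1.47 at 48 h and -1.88 at 72 h. ADM, which encodes adrenomedullin, fell under PP242 at each time (-1.62, -2.02 and -2.02), and SLC2A1, the glucose transporter GLUT1, at 24 h (-1.46). The histone demethylase gene KDM3A differed by 0.25 at 24 h (adjusted p = 0.402) and fell at 48 and 72 h (-0.94 and -1.11).

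Genes whose values over the 27 arrays were most like a member's were picked by correlation. Symbols that start with LOC or hold orf were left out. For BNIP3 they were PFKFB3 (r = 0.965), ALDOA (0.964), AK4 (0.962), COX4I2 (0.960), P4HA1, PFKFB4, NDRG1 and FAM162A (0.945). PFKFB3, PFKFB4 and ALDOA are glycolytic, and AK4 is a mitochondrial adenylate kinase. For BNIP3L they were P4HA1 (0.958), ANKRD37 (0.954), COX4I2 (0.941), KDM3A (0.934), PAM, BNIP3, NDRG1 and DHX40. P4HA1 encodes a collagen prolyl hydroxylase subunit. For FUNDC1 they were TMEM167A (0.939), COMMD8, SCNM1, ACOT9, NDUFA1, HIKESHI, NDUFA7 and ALG13, of which NDUFA1 and NDUFA7 belong to respiratory complex I. Ranking by the 7 group means kept 5 of 8 genes for BNIP3, 2 of 8 for BNIP3L and 0 of 8 for FUNDC1, whose arrays also differed by replicate number.

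The counts of the gene lists below are to be read beside the shares of all genes that moved the same way. In hypoxia at 24, 48 and 72 h these were 0.829%, 6.71% and 11.2% up and 0.182%, 7.11% and 13.3% down, and under PP242 10.4%, 4.41% and 3.41% up and 11.3%, 5.76% and 5.46% down. With 1 median per array all genes shifted down under PP242, with medians of -0.086, -0.069 and -0.028. In that setting 662, 236 and 243 of 12664 genes rose under PP242 and 2120, 965 and 591 fell.

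The other receptors of mitophagy were measured from a list of 8, all tested. In hypoxia 0, 2 and 3 of 8 rose at 24, 48 and 72 h, against 0.829%, 6.71% and 11.2% of all genes, and 0 fell; BCL2L13, a receptor of the outer membrane, rose by 0.71 at 48 h and 0.86 at 72 h (adjusted p = 6.11e-07). Under PP242, 3 of 8 were higher at 24 h, against 10.4% of all genes, namely BCL2L13 (0.56), PHB2 (0.68), a receptor of the inner membrane, and NIPSNAP1 (0.54), and 1 of 8 at 48 h, PHB2 (0.43). With 1 median per array these counts were 0 and 0, where 662 and 236 of all 12664 genes rose. At 72 h 0 rose and BCL2L13 fell (-0.41, adjusted p = 0.0122), a call also absent with 1 median per array.

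Of 9 tested regulators and partners of the 3 receptors, 0 rose at 24 and 48 h and 1 at 72 h in hypoxia, and 0, 1 and 0 fell. The 1 of 9 that rose at 72 h and the 1 of 9 that fell at 48 h are near the shares of all genes, 11.2% and 7.11%. CSNK2A2, a catalytic subunit of casein kinase 2, rose by 0.90 at 72 h, and PPTC7, a mitochondrial phosphatase known to limit BNIP3 and BNIP3L protein, fell at 48 h (-0.38). Under PP242, 4, 3 and 2 rose, against 10.4%, 4.41% and 3.41% of all genes, and 1, 0 and 0 fell at 24, 48 and 72 h; with 1 median per array 4, 1 and 1 rose and 2, 0 and 0 fell. CSNK2A2 differed by 1.47, 0.72 and -0.15, of which the first 2 passed. BCL2, which binds BH3-type proteins, was higher by 1.33, 1.06 and 0.72. FOXO3, a transcription factor known to drive BNIP3 in mouse muscle, was higher by 1.47 and 0.86 at 24 and 48 h. SRC was higher by 0.83 at 24 h (adjusted p = 0.0407) and 1.07 at 72 h.

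In the PINK1 and Parkin arm with its adaptors, 12 genes were tested. In hypoxia 0, 1 and 4 rose, against 0.829%, 6.71% and 11.2% of all genes, and 0, 3 and 1 fell, against 0.182%, 7.11% and 13.3%. Under PP242 0, 1 and 0 rose, against 10.4%, 4.41% and 3.41%, and 2, 3 and 2 fell, against 11.3%, 5.76% and 5.46%. The falls at 24 h under PP242 and at 72 h in hypoxia are near those shares. TBK1, the kinase of autophagy adaptors, was lower at each time (-0.81, -0.84 and -0.50), and VCP, the segregase p97, at 24 h (-0.96). The deubiquitinase USP30 was lower at 48 h (-0.52) and 72 h (-1.0), where 2 of 4 PP242 arrays were above background. PINK1, the kinase that marks damaged mitochondria, was lower at 48 h (-0.54), with 3 of 4 PP242 arrays above background. SQSTM1, the adaptor p62, was higher at 48 h (0.60), a rise not called with 1 median per array.

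Of the 6 tested ATG8 genes, whose proteins the receptors bind, 0 changed in hypoxia at any time. Under PP242, MAP1LC3B was higher by 0.40, 0.76 and 0.41, and with 1 median per array at 48 h alone. MAP1LC3A fell at 48 h (-0.59). Among 18 genes of autophagosome formation, 0, 0 and 1 rose and 0, 2 and 3 fell in hypoxia, and 3, 1 and 0 rose and 3, 0 and 1 fell under PP242. These counts are near the shares of all genes, such as 13.3% down at 72 h in hypoxia and 10.4% up and 11.3% down at 24 h under PP242. ULK1, the kinase that starts autophagy, was higher under PP242 by 1.08 at 24 h and 0.67 at 48 h, ATG14 was higher at 24 h (0.70), and UVRAG was lower at 72 h (-0.63).

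Genes of the organelle gave a setting for the receptors. Of 9 fusion and fission genes, 1 rose at each time in hypoxia and 0, 0 and 1 fell; under PP242, MTFP1, a fission protein translated under mTOR control, was the 1 that fell at each time (-0.79, -0.85 and -0.57). Of 15 outer membrane genes, 0 rose and 0, 1 and 2 fell in hypoxia, and 1, 1 and 0 rose and 3, 0 and 0 fell under PP242, where TOMM40, the import channel, was lower at 24 h (-0.69). The falls in hypoxia match the shares of all genes, 7.11% and 13.3% at 48 and 72 h, and the 3 falls at 24 h under PP242 stand beside 11.3%. With 1 median per array 0, 0 and 0 of these rose and 5, 0 and 0 fell under PP242. In that setting 2120 of all 12664 genes fell at 24 h. Of 10 genes of mitochondrial biogenesis, 0, 0 and 1 rose and 0, 0 and 2 fell in hypoxia, and 2, 0 and 0 rose under PP242, with ESRRA at 0.78 at 24 h.

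Of the 7 tested markers of other cell types, 0 rose and 0 or 1 fell in each hypoxia and PP242 comparison. Against the control, 2 fell with PP242 at each time, where 12.8%, 11.0% and 9.85% of all genes fell at 24, 48 and 72 h. The median change of the 7 lay between -0.12 and 0.05 in hypoxia and between -0.021 and 0.0012 under PP242. Only 2 of the 7 were above background on all arrays, so these medians say little of the dim markers. The genes that fell were ACTA2, which is high in smooth muscle and fibroblasts, and CD14, a monocyte marker. Against DMSO, PP242 lowered CD14 at 24 h (-0.90, adjusted p = 0.000201) and ACTA2 at 48 h (-2.03) and 72 h (-2.07). In hypoxia with DMSO, ACTA2 was lower than in the control at 24 h (-1.46) and CD14 at 72 h (-0.65). With PP242, both were lower than in the control at each time.

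The summed normalized level of the 7 tested markers ran from 296 to 322 with PP242 and 292 to 370 with DMSO at 24 h. At 48 h it ran from 288 to 336 with PP242 and 378 to 530 with DMSO, and at 72 h from 287 to 372 with PP242 and 494 to 645 with DMSO. It ran from 402 to 600 in the 0 h control, above every DMSO 24 h array. ACTA2 carried the difference at 48 and 72 h: without it, the sums overlapped, at 243 to 258 with PP242 and 244 to 263 with DMSO at 48 h, and at 216 to 270 with PP242 and 224 to 259 with DMSO at 72 h. Without ACTA2 the control ran from 264 to 283. That is above every PP242 array at 24 h (209 to 245) and 48 h and every DMSO array at 48 and 72 h. COL1A1 exceeded background on 9 arrays, HBB on 4, COL1A2 and KRT18 on 3 and EPCAM on 23. The sum without ACTA2 therefore lies largely near background, where overlap says little. The part of these values in the rise of BNIP3 and BNIP3L in hypoxia and in their differences under PP242 was not tested.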

How the data were processed

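The 27 samples of SK-N-BE(2)c RNA were measured on 1-colour Illumina bead arrays. The authors deposited a non-normalized table of signal intensity for 48107 probes and a value table of normalized intensity for 27367 of them (median 109.561); background correction, scanner settings and software are not given in the sources used here. Every column of sample values could be mapped (0 were not). Detection p-values, which the plan called for, are in neither table used here, so a stand-in was computed.

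Signals were corrected by normexp (offset 16), transformed to log2 and quantile normalized. Background was taken per array as the mode of its signals (bandwidth 1.5; modes 92.4 to 106) and its SD from the signals under that mode, mirrored (4.76 to 6.13); the filter kept 31318 probes that passed the upper 0.05 tail of background on 3 or more arrays. Platform annotation named 23495 value table probes with 1 symbol, 1 with several and 3871 with none. Probes outside the value table had no name, and 14868 kept probes had none. The genes tested thus depend on which probes the value table holds. The kept probe with the highest mean stood for a gene, giving 12664 genes, 9703 with 1 kept probe.

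Groups were compared with limma 3.58.1 in R 4.3.3, in 1 model over the 7 groups, with Benjamini-Hochberg adjustment over all genes at 0.05, and checked on simulated data. Unequal change was tested by two-sided exact permutation tests. Replicate numbers come from the labels; deviations of same-numbered arrays correlated above 0.1 in each comparison of 2 groups except DMSO 72 h against control (lowest 0.0982), so the number was also fitted as a block. Named genes were the members, the 8 genes most correlated with each apart from LOC and orf symbols, and up to 3 of each list. Those from the lists had passed the threshold with the smallest p in the hypoxia and PP242 comparisons. VEGFA and the cell type markers named outside that rule were chosen after their values were seen. The members and lists were chosen with earlier results of these data known. The number of arrays limits the precision.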

Additional observations from a re-analysis of the deposited data

Results flagged for a closer look

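The stronger BNIP3L probe read 9.29 on PP242 48 h replicate 3, lower than the other 3 arrays of its group by almost the whole range of the group. It was the 1 far array among 24 combinations of a probe and a group of 4; chance flags about 1 group in 20.

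The PP242 effect on BNIP3L differed between times: at 72 h it was lower than at 24 h by a log2 value of -0.80 (limma, adjusted p = 0.0178). The weaker probe of the gene gave -0.35 (adjusted p = 0.551).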

How the results depend on the processing

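Of 54 member results, 50 stayed on their side of the threshold under all 11 alternatives and 50 without any 1 array. Among results that passed in either run, 0 changed sign. Some that passed in neither did, such as FUNDC1 with DMSO at 24 h against the control (-0.18 to 0.18) and BNIP3L with PP242 at 24 h against DMSO (-0.07 to 0.36). The results that crossed the threshold were all of BNIP3L. DMSO at 48 h against 24 h (0.53, adjusted p = 0.0751) passed with normexp offset 50 (0.51), no background correction (0.49), the authors' value table (0.50), the replicate block (0.60) and without the arrays numbered 4 (0.59), and lay between 0.39 and 0.68 with 1 array left out. PP242 against DMSO at 72 h was lost with 1 median per array (-0.61) and without the arrays numbered 4 (-0.49, adjusted p = 0.0605), and ran from -0.65 to -0.44 with 1 array left out. DMSO at 72 h against 24 h was lost with 1 median per array (0.22), with no filter on dim probes (0.51, adjusted p = 0.0523) and with all kept probes fitted (0.51, adjusted p = 0.0616), and ran from 0.36 to 0.65. The PP242 effect at 72 h minus 24 h was lost with 1 median per array (-0.55) and ran from -0.94 to -0.65. The cause was not tested. The replicate block changed no other member call. Leaving out the arrays numbered 4, the weaker probe, the contrasts of neighbouring groups and the marker sum without ACTA2 were added after seeing the data.

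Counts of called genes moved more. In hypoxia at 24 and 48 h they were 128 and 1750, against 361 and 2988 with the block and 67 and 955 with the compared groups alone; leaving out 1 array gave 80 to 145 and 1189 to 1886. For PP242 against DMSO at 48 and 72 h they were 1288 and 1124, against 2503 and 2162 with the block. For PP242 against control at 48 and 72 h, 2452 and 2088 became 1381 and 1119 with the compared groups alone, and the 72 h comparison gave 3313 with the block. DMSO over time gave 513, 288 and 2098, against 1272, 901 and 3200 with the block, and fell as low as 134, 102 and 1357 with 1 array left out. PP242 over time gave 140, 1 and 747, against 578, 14 and 1593 with the block and 6, 0 and 353 with the compared groups alone. Differences of the PP242 effect gave 640, 76 and 1920, against 1501, 473 and 3131 with the block; the middle one ran from 2 to 186 with 1 array left out. Dim probes bound what can be seen of low genes such as USP30 and PINK1.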
